A study of Rattus norvegicus with 18 samples.

Results

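The mRNA levels of 7 subunits of the GABA-A receptor, Gabra2, Gabra3, Gabra4, Gabra5, Gabrb1, Gabrb2 and Gabrd, were examined in the dorsal hippocampus of 18 rats. The 7 genes were taken by symbol from the 38445 genes counted in each library, and all 7 were among the 17853 genes that passed the filter on low expression. The rats were adult male Sprague Dawley rats, 75 to 85 days old when bought, individually housed, pair fed and kept on the nutritionally complete Lieber-DeCarli liquid diet. Control rats (n = 6) received the diet without ethanol. Ethanol rats (n = 6) were brought to the ethanol diet over 7 days, were kept at 9% ethanol (v/v) and were not withdrawn (0 h). Withdrawal rats (n = 6) had 15 days at full strength and were then given the control diet for 24 h, while ethanol rats stayed on ethanol for another day, 16 in all. The labels give 15 or 16 days on the full-strength or control diet. Each library came from a different animal, so the spread between rats is biological as well as technical. RNA of a whole piece of tissue was measured, and fewer cells of a type and less RNA per cell cannot be told apart.

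GABA-A receptors are chloride channels opened by GABA, the main inhibitory transmitter of the forebrain, and they are a long-studied site of ethanol action. A receptor is a ring of subunits built from alpha and beta subunits together with a gamma or a delta subunit. The alpha subunit sets much of the pharmacology and the location. Many receptors with a gamma subunit gather at synapses, while receptors with alpha4 (Gabra4) and delta (Gabrd), or with alpha5 (Gabra5), lie mostly outside synapses and carry tonic inhibition. In the hippocampus alpha5 is typical of pyramidal neurons, and alpha4 and delta are typical of dentate granule cells. Outside it, alpha4, beta2 (Gabrb2) and delta are abundant in thalamic relay nuclei, which lie just below the dorsal hippocampus.

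The genes lie in clusters, as given by the exon coordinates of the deposited files (Rnor_6.0). Gabrb1 (chromosome 14, 38631192 to 39112598), Gabra4 (chromosome 14, 39154072 to 39230994) and Gabra2 (chromosome 14, 39662411 to 39801082) are neighbors. Gabrb2 (chromosome 10, 27973694 to 28193072), Gabra5 (chromosome 1, 112833941 to 112947482) and Gabra3 (chromosome X, 152414332 to 152642607) each lie near subunit genes that are not among the 7. Gabrd (chromosome 5, 172797478 to 172809374) lies apart from them.

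Promoter windows of 300 bases, 250 before and 50 after the gene start, were taken from a table of RefSeq promoters (GRCr8), in which 6 of the 7 genes, all but Gabra2, were matched. 4 are shown, because Gabra4 and Gabrd varied together among rats and Gabra5 and Gabrb2 varied in opposite directions. Capitals mark matches, searched on both strands, to letters known from factor sites: the cAMP response element TGACGTCA with its core TGACG inside it, the EGR motif GCGTGGGCG, the SP1 motif GGGCGG, the TATA box TATAAA, the STAT motif TTCNNNGAA and the AP-1 motif TGAGTCA. The EGR and SP1 motifs share letters and can overlap.
Gabra4, chr14:36944497-36944796, plus strand: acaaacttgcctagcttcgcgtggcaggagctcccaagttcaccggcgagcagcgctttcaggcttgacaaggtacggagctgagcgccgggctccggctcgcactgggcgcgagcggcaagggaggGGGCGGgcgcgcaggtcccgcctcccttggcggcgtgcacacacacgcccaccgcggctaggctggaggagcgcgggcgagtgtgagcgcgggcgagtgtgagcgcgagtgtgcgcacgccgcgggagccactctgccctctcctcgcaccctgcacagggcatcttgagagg
Gabrd, chr5:171252660-171252959, minus strand: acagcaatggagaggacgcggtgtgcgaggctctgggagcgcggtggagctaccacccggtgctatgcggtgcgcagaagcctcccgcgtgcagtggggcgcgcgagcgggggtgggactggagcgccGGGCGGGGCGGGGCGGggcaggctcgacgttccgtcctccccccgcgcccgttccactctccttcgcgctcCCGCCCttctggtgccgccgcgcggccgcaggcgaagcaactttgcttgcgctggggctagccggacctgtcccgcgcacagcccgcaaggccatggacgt
Gabra5, chr1:117516557-117516856, minus strand: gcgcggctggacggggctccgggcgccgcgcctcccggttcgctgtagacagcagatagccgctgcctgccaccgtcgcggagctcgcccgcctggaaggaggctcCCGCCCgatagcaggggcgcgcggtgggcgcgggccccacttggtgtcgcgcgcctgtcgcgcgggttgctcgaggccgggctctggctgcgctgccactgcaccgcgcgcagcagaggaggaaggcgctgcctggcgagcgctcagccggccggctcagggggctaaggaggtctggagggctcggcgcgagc
Gabrb2, chr10:27439543-27439842, plus strand: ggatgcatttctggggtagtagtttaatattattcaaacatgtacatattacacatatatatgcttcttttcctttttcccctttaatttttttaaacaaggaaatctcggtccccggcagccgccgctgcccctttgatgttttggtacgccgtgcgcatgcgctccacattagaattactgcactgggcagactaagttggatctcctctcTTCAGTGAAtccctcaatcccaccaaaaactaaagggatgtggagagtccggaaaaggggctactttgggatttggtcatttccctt

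The windows of Gabra4, Gabrd and Gabra5 were rich in G and C, at 70.7%, 73.7% and 76.3%, against a median of 51.7% over the 33469 promoters of the table. The SP1 letters occurred 4 times in the Gabrd window, 3 of them overlapping by 1 base, and 1 time each in those of Gabra4 and Gabra5, and 33.1% of all windows held them. The Gabrb2 window had 44% G and C and held the STAT letters 1 time. The window of Gabrb1 held them 2 times, and 8.87% of all windows did. Gabra3 had 39.3% G and C and 1 match to the TATA box letters, found in 14.2% of windows. The cAMP response element, its core, the EGR and the AP-1 letters had no match in the 6 windows, and 1.83%, 21.2%, 0.544% and 4.63% of all windows held them. These matches describe letters and were not tested as binding sites.

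In control rats the 7 subunits were all well expressed, between 10.3 and 51.8 RPKM. Levels between genes were compared as RPKM, the TMM-normalized CPM per kb of exon, and levels between rats as CPM. Gabra2 was the highest of the 7 with 51.8 ± 3.82 RPKM (SD, n = 6), followed by Gabra5 with 49.8 ± 6.63 RPKM. Gabra2 exceeded Gabra5 in 4 of 6 control rats, and the difference was within the spread (two-sided exact sign-flip test over 6 rats, p = 0.375, smallest possible p 0.03125). Gabrb2 with 34.3 ± 6.46 RPKM and Gabra4 with 33.9 ± 4.04 RPKM came next and did not differ beyond their spread (exact sign-flip p = 0.938). Gabrd with 19.9 ± 4.25 RPKM and Gabrb1 with 18.6 ± 1.62 RPKM did not either (exact sign-flip p = 0.656). Gabra3 was the lowest of the 7 with 10.3 ± 2.11 RPKM, and it was below Gabrb1 in 6 of 6 control rats with no overlap of their ranges.

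**Figure D1:**
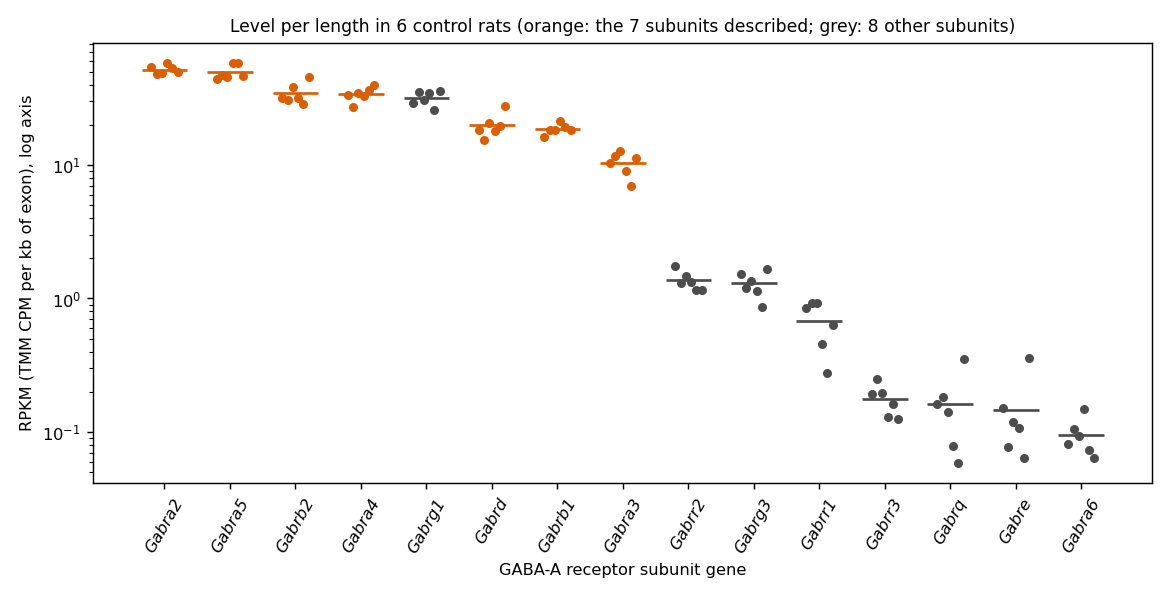
Level per length (RPKM, log axis) of the 7 subunits described and 8 other GABA-A receptor subunit genes in the 6 control rats. Points are rats and lines are means. The 7 subunits described have means between 10.3 and 51.8 RPKM, above Gabrr2 and the other sparse subunits, which have means of 1.36 RPKM or less.

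Gabrg1 (gamma1), which is not among the 7, had 31.9 ± 3.98 RPKM in control rats. Gabra3 had the lowest mean of the 7 in each of the 3 groups, but in withdrawal rats its range reached that of Gabrb1. In withdrawal rats Gabra5 (50.8 ± 13.5 RPKM) stood above Gabra2 (45.8 ± 10.02 RPKM) in 5 of 6 rats (exact sign-flip p = 0.0625).

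The comparisons between groups asked whether chronic ethanol and its withdrawal changed subunit mRNA. None of the 7 genes was DE in any of the 3 comparisons (limma-voom with 3 surrogate variables, q under 0.1 after Benjamini-Hochberg adjustment over all genes). Surrogate variables are sources of variation estimated from all genes and added to the model. The lowest q among the 21 tests was 0.258, for Gabra2 between withdrawal and control. Over all tested genes the share called DE was 5.41% for withdrawal vs. control, 2.72% for withdrawal vs. ethanol and 0.493% for ethanol vs. control. At an unadjusted p under 0.05, 1 of the 21 tests remained, against 19.7% of all genes in the withdrawal vs. control, 16.7% in the withdrawal vs. ethanol and 12.5% in the ethanol vs. control comparison. The edgeR quasi-likelihood test and DESeq2, both without surrogate variables, also called 0 of the 7 genes in each comparison, and each gave 1 unadjusted p under 0.05, for Gabrd. Of all genes the edgeR test called 0.185%, 3.82% and 0.347% and DESeq2 2.44%, 8.08% and 2.41% for withdrawal vs. control, withdrawal vs. ethanol and ethanol vs. control. At such shares 0 of 7 genes does not set the subunits apart from other genes. For none of the 7 genes did the rats of one group all lie on one side of the rats of another, which held for 1.07% of all genes in withdrawal vs. control, 1.20% in withdrawal vs. ethanol and 1.39% in ethanol vs. control.

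**Figure D2:**
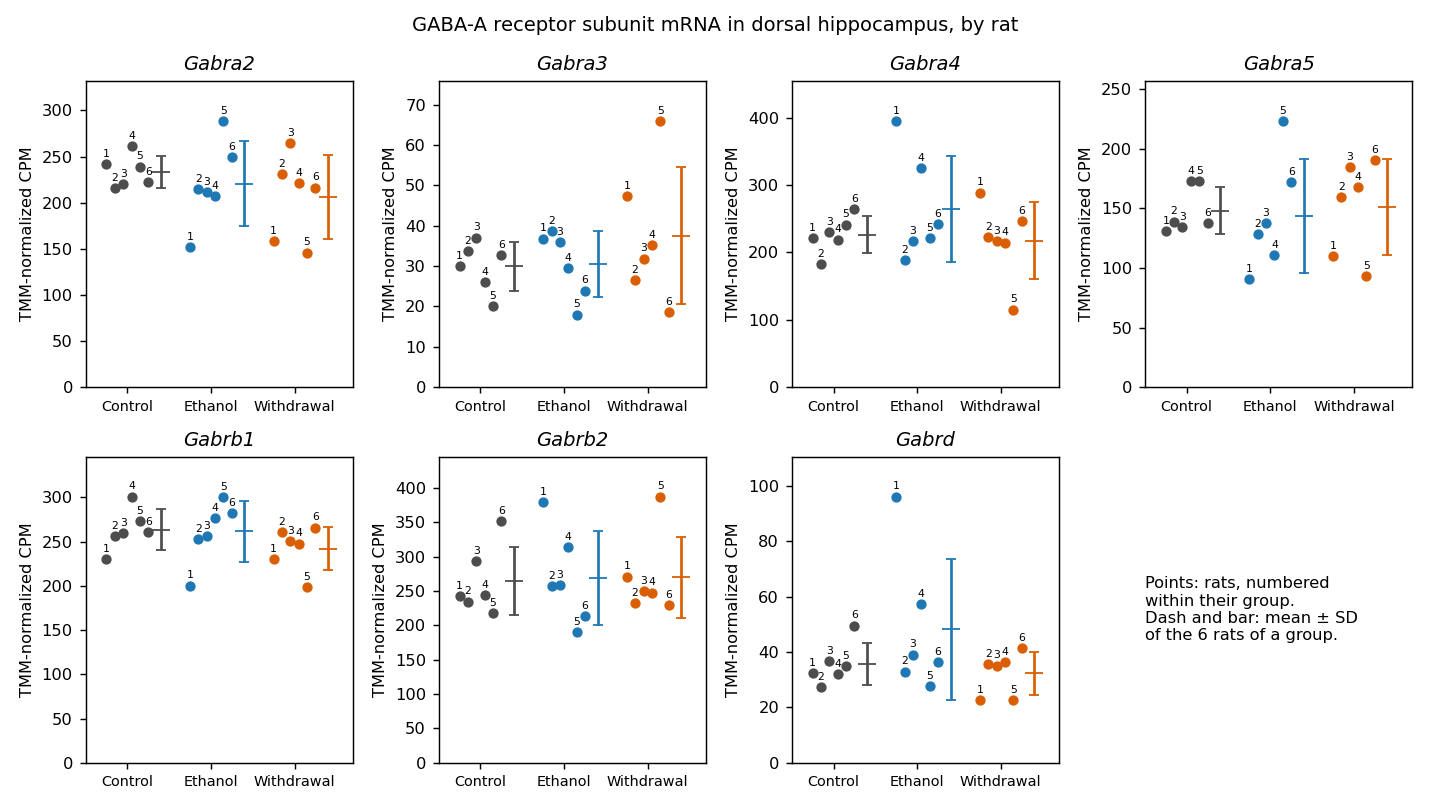
TMM-normalized CPM of the 7 subunits in each rat (points, numbered within a group), with mean ± SD of the 6 rats of a group. The 3 groups overlap for every subunit, and ethanol rat 1 and withdrawal rat 5 lie far from most rats of their group for several subunits.

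The intervals of the differences depended on the model and gave no single bound on what could have been missed. With 3 surrogate variables, the 95% confidence intervals of the 21 log2 fold changes lay between −0.39 and 0.37, that is, between 0.761-fold and 1.30-fold. Without surrogate variables they lay between −0.99 and 0.85. The median of the 7 log2 fold changes was −0.05 for withdrawal vs. control and 0.00 for both other comparisons, beside a median of 0.00 over all genes tested in each comparison.

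**Figure D3:**
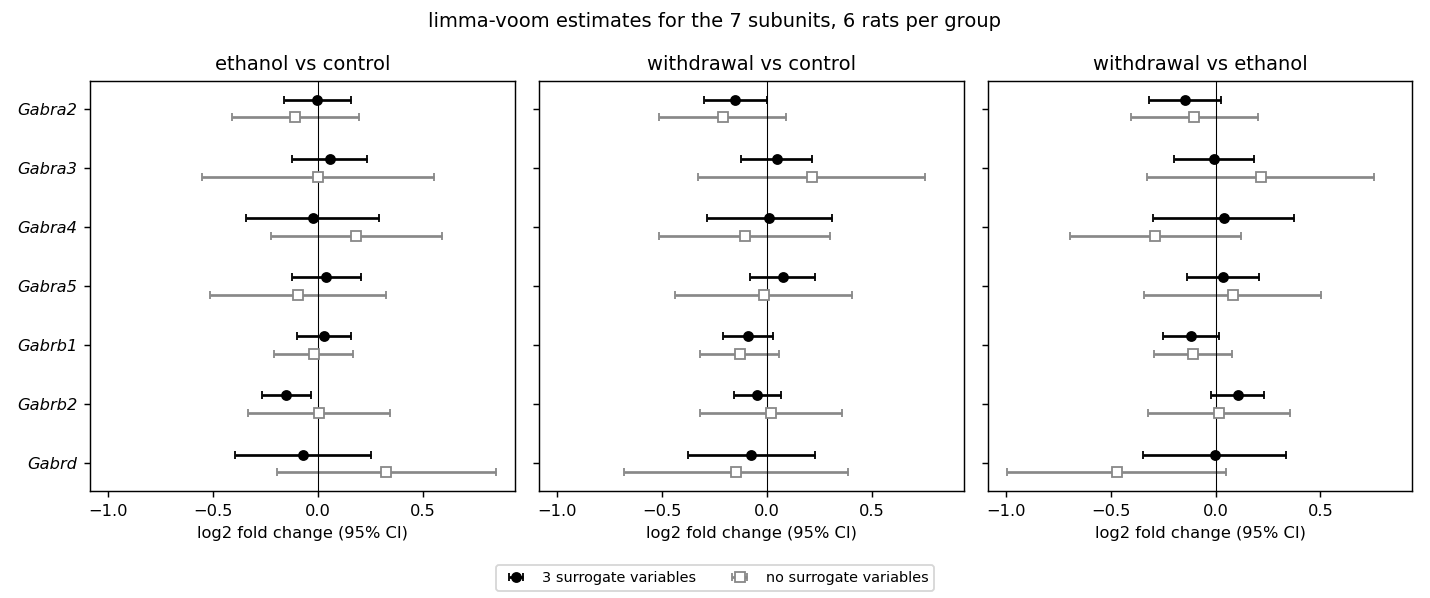
Log2 fold changes of the 7 subunits with 95% confidence intervals from limma-voom with 3 surrogate variables (filled circles) and without (open squares), 6 rats per group. With 3 surrogate variables the interval of 1 gene, Gabrb2 between ethanol and control, leaves out 0, and its q was 0.278.

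Gabra2, the alpha2 subunit of synapses and of the axon initial segment, had the lowest q. Its level in control rats lay between 216 and 261 CPM with a median of 231 CPM. It lay between 151 and 289 CPM (median 213 CPM) in ethanol rats and between 146 and 264 CPM (median 219 CPM) in withdrawal rats. The low end of the withdrawal group came from rats 1 and 5, at 159 and 146 CPM, and the low end of the ethanol group from rat 1. The control rats lay close together, and 4 of 6 ethanol rats and 2 of 6 withdrawal rats were below all of them. Control rats averaged 233 ± 17.2 CPM and withdrawal rats 206 ± 45.2 CPM (SD, 6 rats each), and the log2 fold change of −0.15 (SE 0.072) did not pass the test (limma-voom q = 0.258). Without surrogate variables the log2 fold change was −0.21 (SE 0.14). The two-sided exact permutation test, run on log2 CPM without surrogate variables, gave p = 0.219, where 0.00216 is the smallest possible p.

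Gabra5, the alpha5 subunit of pyramidal neurons, had nearly equal means of 148 ± 19.7, 144 ± 47.7 and 151 ± 40.2 CPM in control, ethanol and withdrawal rats. Single rats differed more than groups. Control rats spanned 131 to 173 CPM (median 138 CPM), ethanol rats 90.5 to 223 CPM (median 133 CPM) and withdrawal rats 92.9 to 190.4 CPM (median 164 CPM). For withdrawal vs. control the log2 fold change was 0.07 (SE 0.073, limma-voom q = 0.604), and without surrogate variables it was −0.01 (SE 0.20).

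Gabra4, the alpha4 subunit that assembles with delta, lay between 183 and 264 CPM (median 226 CPM) in control rats. It lay between 188 and 395 CPM (median 232 CPM) in ethanol rats, where rats 1 and 4 were the highest. In withdrawal rats it lay between 115 and 289 CPM (median 219.9 CPM), with rat 5 far below the others, whose lowest value was 215 CPM. The log2 fold change with surrogate variables was 0.01 (SE 0.14, limma-voom q = 0.976) between withdrawal and control. For ethanol vs. control the value was −0.03 (SE 0.15, limma-voom q = 0.966) and turned to 0.18 (SE 0.19) without surrogate variables.

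Gabrd, the delta subunit, was the most variable of the 7, with 4.25-fold between the lowest and the highest of the 18 rats. Control rats lay between 27.2 and 49.5 CPM (median 33.7 CPM) and withdrawal rats between 22.6 and 41.5 CPM (median 35.3 CPM). Ethanol rats lay between 27.6 and 96.1 CPM (median 37.7 CPM). Ethanol rat 1 alone held the 96.1 CPM, and the next was rat 4 with 57.2 CPM, so that the mean of the ethanol group fell from 48.2 ± 25.5 to 38.6 CPM without rat 1. The log2 fold change between withdrawal and ethanol was 0.00 (SE 0.16, limma-voom q = 0.995) with and −0.47 (SE 0.25, limma-voom q = 0.314) without surrogate variables. DESeq2 gave −0.58 with an unadjusted p of 0.0212 and q = 0.155, and the edgeR test gave −0.58 with an unadjusted p of 0.0361 and q = 0.228. The exact permutation test gave p = 0.143.

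Gabra3, the alpha3 subunit, is sparse in the hippocampus and known from the thalamic reticular nucleus and cortex. It lay between 19.99 and 37.0 CPM (median 31.4 CPM) in control rats, between 18.0 and 38.7 CPM (median 32.8 CPM) in ethanol rats and between 18.5 and 65.9 CPM (median 33.5 CPM) in withdrawal rats. Withdrawal rat 5 had the 65.9 CPM, and without it the withdrawal mean fell from 37.6 ± 16.9 to 31.9 CPM, near the 29.9 ± 6.10 CPM of control rats. For withdrawal vs. control the log2 fold change was 0.05 (SE 0.080, limma-voom q = 0.786) with surrogate variables. Without them it was 0.22 (SE 0.26, limma-voom q = 0.795), and it was 0.32 by the edgeR test (q = 0.637) and 0.32 by DESeq2 (q = 0.628).

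The beta subunits are needed for assembly and surface delivery of the receptor. Gabrb2 lay between 218 and 351 CPM (median 243 CPM) in control rats, between 189.7 and 379 CPM (median 258 CPM) in ethanol rats and between 229 and 387 CPM (median 248.7 CPM) in withdrawal rats. The highest rats of the groups were control rat 6, ethanol rat 1 and withdrawal rat 5, and the next highest had 294, 314 and 271 CPM. Its group means were 264 ± 49.6, 269 ± 68.9 and 269 ± 59.5 CPM. With surrogate variables the log2 fold change between ethanol and control was −0.15 (SE 0.056, unadjusted p = 0.0158, q = 0.278 by limma-voom). Without them it was 0.00 (SE 0.16), and the exact permutation test gave p = 0.974.

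Gabrb1 varied least among the 7, with 1.52-fold between the lowest and the highest rat. It lay between 231 and 301 CPM (median 260.0 CPM) in control rats, between 200.4 and 300.2 CPM (median 266 CPM) in ethanol rats and between 198 and 266 CPM (median 249.1 CPM) in withdrawal rats. Its log2 fold change was −0.09 (SE 0.057, limma-voom q = 0.397) between withdrawal and control and −0.12 (SE 0.064, limma-voom q = 0.359) between withdrawal and ethanol. No withdrawal rat lay above all control rats, and 2 lay below all of them.

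Ratios of subunits within a rat do not depend on the scaling between libraries. Of 4 ratios compared in 3 ways, 1 had an unadjusted exact permutation p under 0.05. The ratio of Gabra5 to Gabra2, per length, lay between 0.820 and 1.10 (median 0.958) in control rats and between 0.966 and 1.34 (median 1.06) in withdrawal rats. The groups overlapped, and the ratio was higher in withdrawal by 0.20 on the log2 scale (two-sided exact permutation p = 0.0455, and 0.0130 to 0.0909 with each rat left out in turn). After Benjamini-Hochberg adjustment over the 12 ratio tests the exact permutation p was 0.545. The ratios Gabrb2/Gabrb1, Gabra4/Gabra2 and Gabrd/Gabra4 differed by between −0.19 and 0.29 on the log2 scale over the 3 comparisons, with exact permutation p between 0.374 and 0.933. Both ends rested on 1 rat. Gabra4/Gabra2 in ethanol vs. control went from 0.29 to 0.06 without ethanol rat 1, and Gabrd/Gabra4 in withdrawal vs. ethanol went from −0.19 to −0.01 without withdrawal rat 1.

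Genes that act with the receptor were compared in the same model. Of 12 other subunit genes, 11 were tested and 0 were DE in each comparison, with 2, 3 and 0 genes at an unadjusted p under 0.05 for withdrawal vs. control, withdrawal vs. ethanol and ethanol vs. control. The pi subunit gene Gabrp reached 0.142 CPM at most and was not tested. Of 22 genes of receptor clustering and trafficking, such as Gphn, the gephyrin scaffold of inhibitory synapses, 0 were DE in each comparison, with 3, 3 and 0 at an unadjusted p under 0.05 in the same order. Of 10 genes of GABA-B and glycine receptors 0 were DE, with 1, 0 and 1 at an unadjusted p under 0.05. Of 5 neurosteroid synthesis genes tested, whose products modulate delta receptors, 0 were DE, with 2, 2 and 0 at an unadjusted p under 0.05. In withdrawal vs. ethanol the edgeR test and DESeq2 both called 1 neurosteroid gene, Akr1c14, which encodes a hydroxysteroid dehydrogenase (log2 fold changes 0.38 and 0.38, and 0.35 by limma-voom with surrogate variables). DESeq2 also called 2 clustering and trafficking genes there, Gphn and Ubqln1, with log2 fold changes of 0.14 and 0.09. DESeq2 called 8.08% of all genes in this comparison, near the share of this list. These tools called 0 genes of the 4 lists otherwise. Median log2 fold changes of these lists lay between −0.09 and 0.24, beside 0.00 for all genes.

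Of 8 genes tested that set the chloride gradient, 1 was DE in withdrawal vs. control, where 5.41% of all genes were, and 0 in the other comparisons. Stk39 encodes the kinase SPAK, which acts on the chloride cotransporters. It was increased in withdrawal over control rats in the model with surrogate variables (limma-voom log2 fold change 0.16 with an SE of 0.050, q = 0.0915). Control rats lay between 102 and 129 CPM and withdrawal rats between 89.8 and 179 CPM, with medians of 117 CPM in both groups. Without surrogate variables the log2 fold change was 0.05 with q = 0.932 (limma-voom), and the exact permutation test gave p = 0.751. The edgeR test and DESeq2 called 0 genes of this list. With each rat left out in turn, 0 genes of this list were DE in 11 of 18 models.

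The variation among rats of a group was shared between subunits. After the group means were removed from log2 CPM, Gabra2 and Gabra5 varied together over the 18 rats (Pearson's r = 0.93, Spearman's rho = 0.86, permutation p = 3e-05 and 0.00019, 0.00021 after adjustment over the 21 pairs for r). Without the 2 rats farthest from the median r was 0.87, and within control, ethanol and withdrawal rats it was 0.66, 0.96 and 0.94. Gabrb1 varied with both, with r of 0.82 and 0.84 and rho of 0.78 and 0.84. Gabra3 and Gabrb2 varied together (r = 0.74, rho = 0.78) and against these, with r between −0.85 and −0.72 over the 6 pairs. The weakest of these, Gabrb1 with Gabrb2, had r = −0.41 without the 2 farthest rats and −0.10, −0.83 and −0.98 within control, ethanol and withdrawal rats. Gabra5 and Gabrb2 had r = −0.85 and rho = −0.79 (permutation p = 4e-05 and 0.00052, adjusted 0.00021 for r), with −0.49, −0.98 and −0.87 within the groups and −0.76 without the 2 farthest rats. These sets were chosen after their values were seen, and the pairs share libraries and scaling.

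Gabra4 and Gabrd, partners in one kind of receptor, had r = 0.69 and rho = 0.68 (permutation p = 0.00519 and 0.00715, adjusted 0.00991 for r), and r = 0.54 without the 2 farthest rats. Within control and ethanol rats r was 0.91 and 0.93, and within withdrawal rats it was 0.36. Gabrb2 and Gabrd also differed in this way, with r of 0.84 and 0.93 in control and ethanol rats and −0.80 in withdrawal rats. This was not particular to that pair, as each of the 10 pairs of Gabra4 or Gabrd with the remaining subunits changed sign between ethanol and withdrawal rats. For Gabra5 with Gabrd r was −0.87 in ethanol and 0.96 in withdrawal rats. The difference between groups was not tested. Withdrawal rats 1 and 5 both had 22.6 to 22.7 CPM of Gabrd, the lowest of the 18 rats, and with them Gabrb2 of 271 and 387 CPM.

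**Figure D4:**
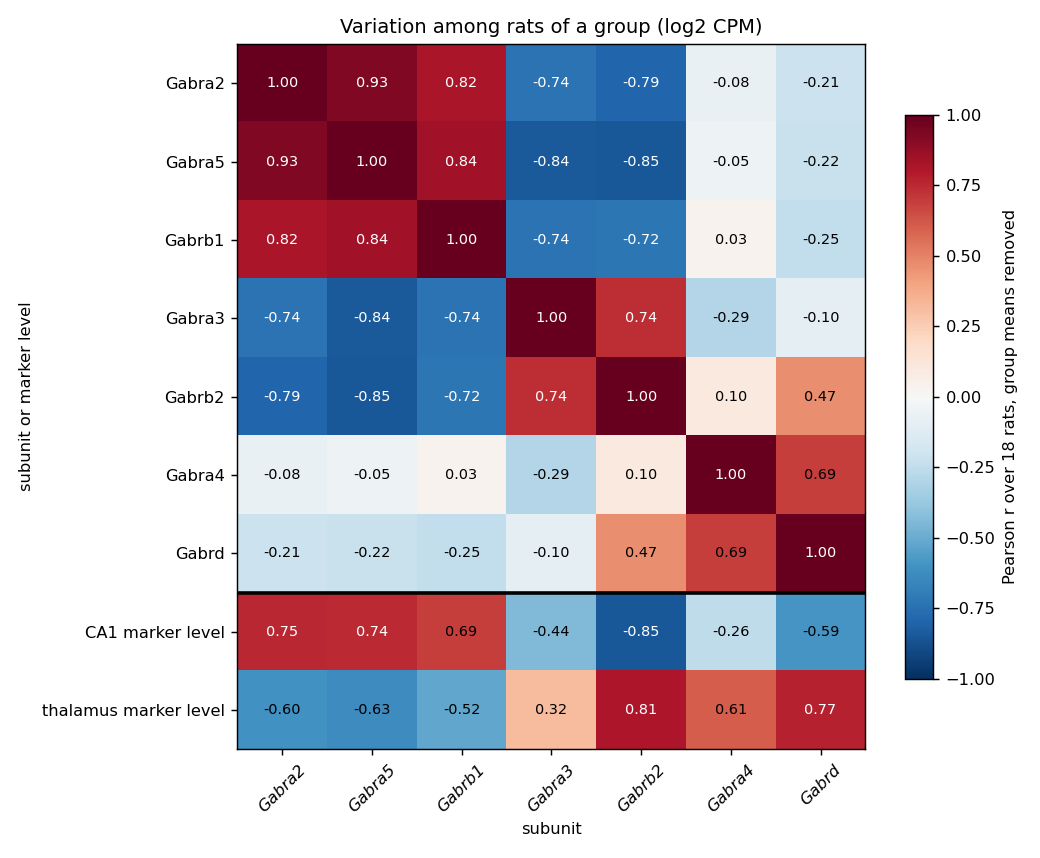
Pearson's r over 18 rats of log2 CPM with group means removed, for each pair of the 7 subunits and for each subunit with the mean level of CA1 and thalamus marker genes. Gabra2, Gabra5 and Gabrb1 have r of 0.82 to 0.93 with each other and −0.85 to −0.72 with Gabra3 and Gabrb2, and Gabra4 has r = 0.69 with Gabrd.

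Of 11 lists of marker genes, those of thalamus and of CA1 were set beside each subunit. The mean log2 CPM of 10 thalamus markers, such as Tcf7l2, Prkcd and Slc17a6, lay between 4.74 and 6.18 in control, between 4.73 and 7.001 in ethanol and between 4.66 and 5.46 in withdrawal rats. Ethanol rats 1 and 4 and control rat 6 had the highest values of the 18, at 7.001, 6.36 and 6.18. The named markers did not move together in withdrawal rat 5. This rat was the highest of the withdrawal rats in Slc17a6 (300 CPM) and Tcf7l2 (142 CPM) and the lowest in Prkcd (36.5 CPM). No thalamus marker was DE or at 0 in all rats. The mean of 6 CA1 markers lay between 4.36 and 4.96 in control, between 3.36 and 4.80 in ethanol and between 4.03 and 4.97 in withdrawal rats. It was lowest in ethanol rat 1, withdrawal rat 5, ethanol rat 4 and control rat 6, and 1 of the markers, Fibcd1, stayed under 0.5 CPM in all rats. Another CA1 marker, Gpr161, was DE in withdrawal vs. control (limma-voom log2 fold change −0.19, q = 0.0985). Of the dentate markers Tdo2 and Lct stayed under 0.5 CPM, as did Iyd of CA3 and Otx2 of the choroid plexus. Over all 11 lists with 74 genes, the number of DE genes was 7 for withdrawal vs. control, 2 for withdrawal vs. ethanol and 0 for ethanol vs. control. The shares of all genes called DE were 5.41%, 2.72% and 0.493% in the same order. In withdrawal vs. control the DE genes were Prox1 of the dentate list, Gpr161 of the CA1 list, 3 astrocyte and 2 endothelial genes. The astrocyte genes were Gfap, higher, and Aldh1l1 and Gja1, lower, and the endothelial genes were Pecam1 and Flt1, higher. In withdrawal vs. ethanol the DE genes were Gad2 of the interneuron list (limma-voom log2 fold change 0.35) and Gfap (0.74). The median of Prox1 was 127, 130.3 and 114 CPM in control, ethanol and withdrawal rats. Withdrawal rats 1 and 5, the 2 rats lowest in Gabrd, had 72.8 and 52.9 CPM of Prox1, and all other rats had 108 CPM or more.

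Gabrb2 varied with the thalamus marker level over the 18 rats, group means removed (r = 0.81, rho = 0.69, permutation p = 0.00016 and 0.00549, adjusted over 14 relations 0.00112 for r, and r = 0.66 without the 2 farthest rats). Within control, ethanol and withdrawal rats r was 0.94, 0.96 and 0.27. Gabrd did as well (r = 0.77, rho = 0.59, permutation p = 0.00317 and 0.0211, adjusted 0.00888 for r, and r = 0.52 without the 2 farthest rats), with 0.96, 0.98 and −0.44 within control, ethanol and withdrawal rats. Gabra4 had r = 0.61 and rho = 0.71 with it, and r = 0.43 without the 2 farthest rats, with 0.79, 0.92 and 0.07 within the groups in the same order. These relations were thus weak or of the other sign within withdrawal rats, and the difference between groups was not tested. Gabra2 and Gabra5 had r of −0.60 and −0.63 with the thalamus level, and −0.45 and −0.56 without the 2 farthest rats. Gabrb1 had r = −0.52 (permutation p = 0.0601), and −0.25 without the 2 farthest rats. Gabra3 had r = 0.32 (permutation p = 0.175). With the CA1 level Gabra2 had r = 0.75, Gabra5 r = 0.74 and Gabrb2 r = −0.85, with 0.45, 0.54 and −0.72 without the 2 farthest rats. Within control, ethanol and withdrawal rats these values were 0.08, 0.87 and 0.78 for Gabra2, 0.46, 0.81 and 0.74 for Gabra5 and −0.89, −0.89 and −0.82 for Gabrb2. Gabrb1 had r = 0.69 with the CA1 level, and r = 0.14 without the 2 farthest rats. Gabra3, Gabra4 and Gabrd had r of −0.44, −0.26 and −0.59 with it (permutation p = 0.0940, 0.382 and 0.0540), and within the 3 groups r was −0.48, −0.93 and 0.75 for Gabra4 and −0.69, −0.98 and 0.57 for Gabrd. The 14 relations share libraries and scaling, and their adjustment does not cover the other marker lists, which were not set beside the subunits. The part of tissue composition in the subunit levels was not tested.

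**Figure D5:**
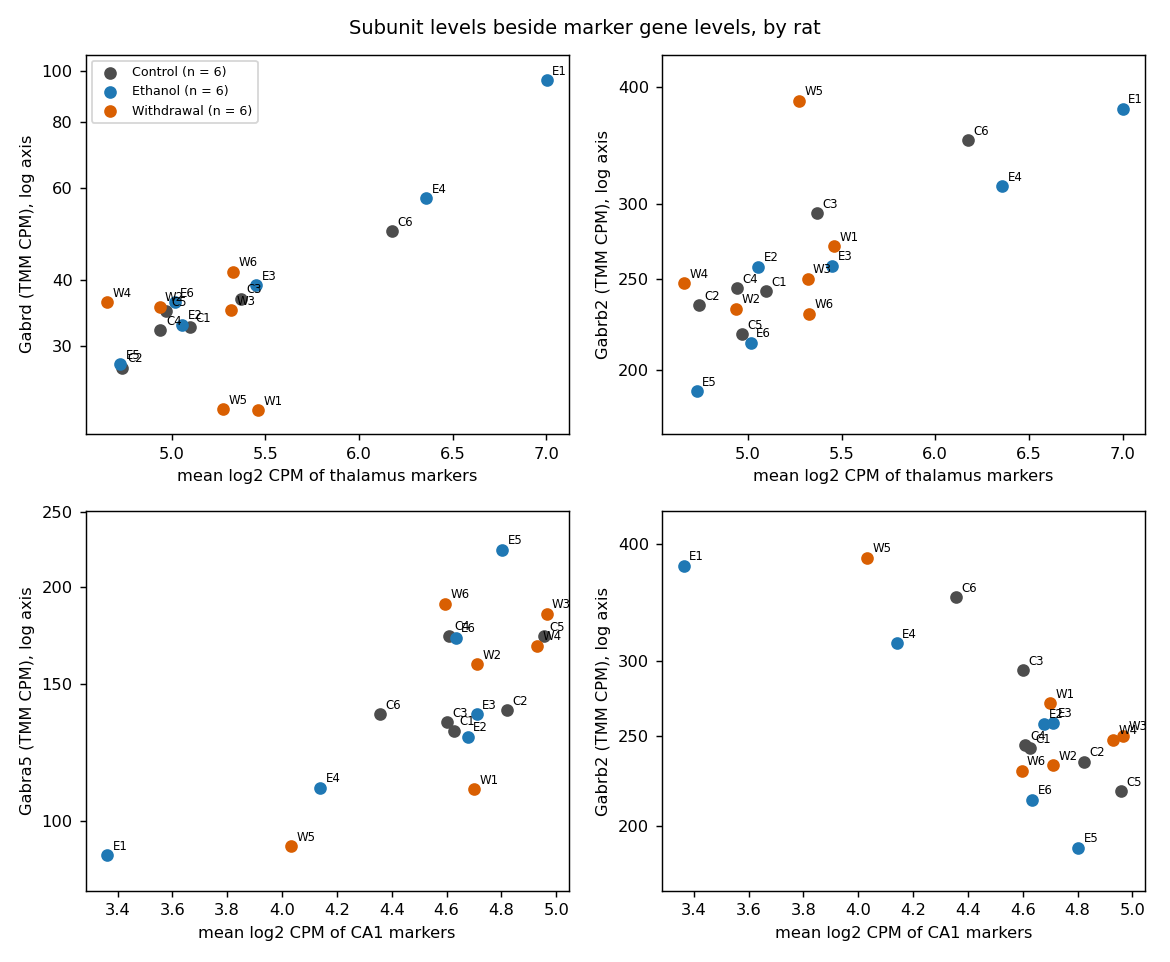
TMM-normalized CPM (log axis) of Gabrd and Gabrb2 against the mean log2 CPM of 10 thalamus markers, and of Gabra5 and Gabrb2 against that of 6 CA1 markers, by rat (C control, E ethanol, W withdrawal). Ethanol rat 1 is highest in thalamus markers (7.001), lowest in CA1 markers (3.36) and highest in Gabrd (96.1 CPM), and withdrawal rats 1 and 5 lie below the other rats in Gabrd.

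The surrogate variables held much of the variation of the subunits within groups. They accounted for 51.7% of the variance of log2 CPM of Gabra4, 67.2% of that of Gabrb1, 69.9% of Gabrd, 79.3% of Gabra2, 89.0% of Gabra5, 91.8% of Gabrb2 and 92.4% of Gabra3. The second surrogate variable had r = 0.89 with the thalamus and −0.87 with the CA1 marker level, and r = 0.83 with Gabrb2 and −0.80 with Gabra5. The first had r = 0.03 with the thalamus and 0.10 with the CA1 level, but −0.79 with the interneuron and 0.72 with the choroid plexus marker level, and r = −0.89 with Gabra3. The variables were estimated from all genes, the subunits and markers included. With them in the model, the SE of the log2 fold changes lay between 0.053 and 0.16, and without them between 0.090 and 0.26.

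Without the 4 rats lowest in CA1 markers, 14 rats remained and 0 of the 7 subunits were DE in any comparison. Of 17613 genes tested in these models, 8, 112 and 115 were DE with 3 surrogate variables and 0, 48 and 0 without, for withdrawal vs. control, withdrawal vs. ethanol and ethanol vs. control, so the count of 0 says little of the subunits. The difference of Gabrd between withdrawal and ethanol without surrogate variables, −0.47 with all rats, was 0.00 (SE 0.15) without them. In the model with 3 surrogate variables Gabrd was then higher in withdrawal than in control rats by 0.28 on the log2 scale (SE 0.090, limma-voom q = 0.251), where it had been −0.07 with all rats. The index sequences of the libraries came from 3 sets, with the 6 control rats in the first, the 6 ethanol rats and withdrawal rats 1 and 2 in the second and the other 4 withdrawal rats in the third. Control rats and the first index set cannot be told apart. Within the second set, the log2 fold changes of the 7 subunits between 2 withdrawal and 6 ethanol rats lay between −0.61 for Gabrd and 0.24 for Gabra3, with q of 0.614 or more (limma-voom).

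Withdrawal rat 5 also differed in a subunit outside the 7. Gabra6, the alpha6 subunit of cerebellar granule cells, had 5.57 CPM in this rat and at most 0.593 CPM in the other 17. Its choroid plexus marker level was 0.83 on the log2 scale, beside 0.51 in withdrawal rat 4 and 4.02 or more in the others.

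For each subunit the 3 genes most alike in their variation over the 18 rats were found among 15143 genes, by Pearson's r of log2 CPM with group means removed. They were Lgi1 (r = 0.97), an unnamed gene and Hunk for Gabra2, and Nr4a3 (r = 0.98), Cpne6 and Prkca for Gabra5. Gabrb1 was most like Camsap2 (r = 0.93), Usp45 and Nkain3. Gabra3 was most like Dpp10 (r = 0.98), Kcnab3 and Gfra2, and Gabrb2 most like Gap43 (r = 0.97), Mcf2 and Rsrc1. Gabrd was most like Kif26a (r = 0.95), Arsa and Napepld, and Gabra4 had the lowest such value, with Ptpn3 (r = 0.90), Heg1 and Tafa3. Only likeness across these libraries was measured.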

How the data were processed

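Poly(A) RNA from the dorsal hippocampus of each of the 18 rats was sequenced in stranded libraries (paired reads of 100 nt, 11 lanes on 2 flowcells, RIN above 8). Per the labels and the methods of the study, the authors aligned reads with STAR 2.5.2a to Rnor_6.0 and counted read pairs over exons of each gene of NCBI annotation 106 with featureCounts 1.5.0, by strand and without pairs that mapped to several places. The deposited values are raw counts per gene, 1 table per rat, with totals of 30873228 to 42679748 per library. They were checked for libraries deposited more than 1 time, and the 45 pairs of rats within groups differed beyond sampling noise.

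Gene IDs were paired with symbols from RefSeq, and 29322 of 38445 IDs had one. Counts were TMM-normalized (edgeR 4.0.16), and the 17853 genes that reached a CPM above 0.5 in 1 rat or more entered limma-voom (limma 3.58.1, R 4.3.3) as 1 model of all 18 rats with 3 surrogate variables (sva 3.50.0). Each comparison was adjusted over all tested genes by the Benjamini-Hochberg method, and q under 0.1 was called DE. Log2 CPM used a prior count of 2. RPKM is TMM CPM per kb of the exon length in the files. Group means of log2 CPM and of log2 ratios were compared with two-sided exact permutation tests (numpy 2.4.6). Correlations of log2 CPM with group means removed were tested by 100000 permutations within groups, for which 1e-05 is the smallest possible p. No interval or floor of single counts is given, and the SDs cover the spread between rats.

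The scripts were run on simulated counts that varied independently between genes and rats, which does not test how surrogate variables handle shared variation. Alternatives were 0, 2 and 4 surrogate variables, edgeR and DESeq2 1.42.0 tests, other scaling and filters, only the groups compared, a replicate block, each rat left out, q under 0.05 and the shared index set. The models without the 4 rats lowest in CA1 markers were chosen after seeing the data. The 7 members and all gene lists were chosen with earlier results of these data known. All 7 members were named, and of each other list of genes acting with the receptor the genes with q under 0.1. Akr1c14, Gphn, Ubqln1, Gfap, Prox1, the marker genes and Gabra6 in withdrawal rat 5 were named outside this rule, after their values were seen. Promoter sequences are those of RefSeq (GRCr8), a later assembly than that of the counts, and no coordinate was converted. Levels, shares and ratios that involve some of the other subunits are not reported here.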

Additional observations from a re-analysis of the deposited data

Results flagged for a closer look

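Gabrb2 in withdrawal rats had 1 rat far from the others. Withdrawal rat 5 had 387 CPM and the next rat 271 CPM, and this gap was 0.737 of the range of the group. Of the 21 sets of 6 rats examined (7 subunits in 3 groups), this was the only one above the flagging cutoff. About 1 in 20 independent sets pass that cutoff by chance, which is not the chance of this gap itself. The sets examined share rats and the subunits varied together, so they are not independent. Without this rat, the mean of Gabrb2 in withdrawal rats was 246 CPM, beside 269 CPM with it.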

How the results depend on the processing

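The 7 subunits were not DE in any comparison run under 35 settings, with a lowest q of 0.138 for Gabra2 in withdrawal vs. control without withdrawal rat 3 (limma-voom). The shared index set gave withdrawal vs. ethanol only. Of the 46 fits that did not leave out a single rat, 7 called 0 genes of all tested and cannot bear on the subunits, namely those of only the 2 groups compared and those of the replicate block without surrogate variables (2 each), those without the 4 rats lowest in CA1 markers and without surrogate variables (2) and that of the shared index set. Signs of these small log2 fold changes were less stable. Apart from the models that left out a single rat, 76 of 301 values had the other sign than the reported one. None of these changed a call, and the cause was not tested. Without surrogate variables, 11 signs changed, to −0.11 for Gabra4, −0.014 for Gabra5 and 0.021 for Gabrb2 in withdrawal vs. control, to 0.22 for Gabra3 and −0.29 for Gabra4 in withdrawal vs. ethanol, and to −7.1e-05 for Gabra3, 0.18 for Gabra4, −0.097 for Gabra5, −0.021 for Gabrb1, 0.0035 for Gabrb2 and 0.33 for Gabrd in ethanol vs. control. With the edgeR quasi-likelihood test, 9 signs changed, to −0.062 for Gabra4 and 0.026 for Gabrb2 in withdrawal vs. control, to 0.30 for Gabra3 and −0.29 for Gabra4 in withdrawal vs. ethanol, and to 0.22 for Gabra4, −0.044 for Gabra5, −0.014 for Gabrb1, 0.023 for Gabrb2 and 0.44 for Gabrd in ethanol vs. control. With DESeq2, 9 signs changed, to −0.064 for Gabra4 and 0.024 for Gabrb2 in withdrawal vs. control, to 0.30 for Gabra3 and −0.28 for Gabra4 in withdrawal vs. ethanol, and to 0.22 for Gabra4, −0.046 for Gabra5, −0.016 for Gabrb1, 0.020 for Gabrb2 and 0.44 for Gabrd in ethanol vs. control. In fits of only the 2 groups compared, 11 signs changed, to −0.11 for Gabra4, −0.019 for Gabra5 and 0.016 for Gabrb2 in withdrawal vs. control, to 0.22 for Gabra3 and −0.28 for Gabra4 in withdrawal vs. ethanol, and to −0.0020 for Gabra3, 0.18 for Gabra4, −0.098 for Gabra5, −0.023 for Gabrb1, 0.0018 for Gabrb2 and 0.32 for Gabrd in ethanol vs. control. With 4 surrogate variables, 2 signs changed, to 0.046 for Gabra3 and 0.037 for Gabrd in withdrawal vs. ethanol. Without the filter on low counts, 1 sign changed, to 0.014 for Gabra2 in ethanol vs. control. Within the shared index set, 4 signs changed, to 0.24 for Gabra3, −0.011 for Gabra4, −0.058 for Gabra5 and −0.060 for Gabrb2 in withdrawal vs. ethanol. Without the 4 rats lowest in CA1 markers and with 3 surrogate variables, 8 signs changed, to 0.044 for Gabrb2 and 0.28 for Gabrd in withdrawal vs. control, to 0.11 for Gabra3, −0.059 for Gabra5 and 0.27 for Gabrd in withdrawal vs. ethanol, and to 0.020 for Gabra2, −0.0041 for Gabra3 and 0.0096 for Gabrd in ethanol vs. control. Without these 4 rats and without surrogate variables, 7 signs changed, to 0.046 for Gabrd in withdrawal vs. control, to 0.10 for Gabra3, −0.021 for Gabra5 and 0.0050 for Gabrd in withdrawal vs. ethanol, and to 0.020 for Gabra2, −0.053 for Gabra3 and 0.041 for Gabrd in ethanol vs. control.

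The labels do not say whether the replicate numbers pair the rats. Correlations of same-numbered rats gave no clear sign of pairing, but they were not compared with those of differently numbered rats and cannot exclude it. Of 18 same-numbered pairs, 4 had a correlation of their deviations above 0.1, and the correlations lay between −0.325 and 0.383. With the replicate block and 3 surrogate variables, 4 signs changed, to −0.00067 for Gabra4 in withdrawal vs. control, to −0.034 for Gabra4 and 0.00094 for Gabrd in withdrawal vs. ethanol, and to 0.034 for Gabra4 in ethanol vs. control. With the replicate block and no surrogate variables, 10 signs changed, to −0.11 for Gabra4, −0.015 for Gabra5 and 0.021 for Gabrb2 in withdrawal vs. control, to 0.22 for Gabra3 and −0.29 for Gabra4 in withdrawal vs. ethanol, and to 0.18 for Gabra4, −0.097 for Gabra5, −0.021 for Gabrb1, 0.0028 for Gabrb2 and 0.34 for Gabrd in ethanol vs. control. Over all genes the replicate block with 3 surrogate variables left 941, 1 and 33 DE genes for withdrawal vs. control, withdrawal vs. ethanol and ethanol vs. control, against 965, 486 and 88 without it. The block without surrogate variables left 0, 14 and 0, against 41, 621 and 50. The 7 subunits were not among the genes called.

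With each of the 18 rats left out in turn, 35 of 378 log2 fold changes changed sign. In withdrawal vs. control the values lay between −0.010 and 0.12 for Gabra3, between −0.15 and 0.16 for Gabra4 and between −0.17 and 0.036 for Gabrd. In withdrawal vs. ethanol the values lay between −0.11 and 0.091 for Gabra3, between −0.077 and 0.23 for Gabra4, between −0.030 and 0.13 for Gabra5 and between −0.13 and 0.093 for Gabrd. In ethanol vs. control the values lay between −0.033 and 0.053 for Gabra2, between −0.076 and 0.059 for Gabra4, between −0.026 and 0.12 for Gabra5, between −0.0032 and 0.065 for Gabrb1 and between −0.13 and 0.031 for Gabrd. The log2 ratio differences in withdrawal vs. control lay between −0.017 and 0.24 for Gabrb2/Gabrb1, between −0.058 and 0.18 for Gabra4/Gabra2, between −0.13 and 0.14 for Gabrd/Gabra4 and between 0.14 and 0.24 for Gabra5/Gabra2. The log2 ratio differences in withdrawal vs. ethanol lay between −0.041 and 0.31 for Gabrb2/Gabrb1, between −0.35 and 0.040 for Gabra4/Gabra2, between −0.28 and −0.0050 for Gabrd/Gabra4 and between 0.13 and 0.24 for Gabra5/Gabra2. The log2 ratio differences in ethanol vs. control lay between −0.16 and 0.16 for Gabrb2/Gabrb1, between 0.064 and 0.42 for Gabra4/Gabra2, between 0.043 and 0.24 for Gabrd/Gabra4 and between −0.044 and 0.063 for Gabra5/Gabra2. The number of DE genes in withdrawal vs. control lay between 0 and 2 for the other subunits and for the chloride gradient, and between 0 and 1 for clustering and trafficking, for GABA-B and glycine receptors and for neurosteroid synthesis. In withdrawal vs. ethanol it lay between 0 and 2 for the other subunits and for clustering and trafficking. The chloride gradient gene counted as DE in withdrawal vs. control, 1 in the reported model, became 0 without surrogate variables and 0 with the edgeR test, and the edgeR test called 1 neurosteroid gene in withdrawal vs. ethanol where the reported model called 0.

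Over all genes the number of DE genes moved with the model. It was 41, 621 and 50 without surrogate variables, 33, 682 and 62 with the edgeR test and 435, 1443 and 431 with DESeq2, in the order of comparisons above. Between 30873228 and 42679748 read pairs were counted per library, and the lowest count of any of the 7 subunits in a library was 634.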
